A study of Ovis aries with 32 samples.

Results

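Beta-klotho and the fibroblast growth factor (FGF) receptors were examined together with a few of their ligands in fetal sheep preadipocytes and in adipocytes differentiated from them. The 10 genes were KLB, FGFR1, FGFR2, FGFR3, FGFR4, FGFRL1, FGF2, FGF7, FGF10 and FGF21. They were taken by gene name from a table of 21271 genes. In that table they have 18 of the 35219 listed transcripts, and all 10 names were found.

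RNA was sequenced from 32 cultures of perirenal preadipocytes, the precursor cells of the fat around the kidney, with 4 libraries in each of 8 groups. MC and FC are preadipocytes of control male and control female near-term fetuses, and MFGR and FFGR are preadipocytes of male and female fetuses with growth restriction. MCD, FCD, MFGRD and FFGRD are the same 4 kinds of cells after differentiation to mature adipocytes. All fetuses were singletons of crossbred Columbia-Rambouillet ewes. Growth restriction was produced by holding the pregnant ewes at high ambient temperature, a model of placental insufficiency, and the control ewes were kept at a moderate temperature and pair-fed. The composition of the differentiation medium and the days in culture are not given in the sources used here. The labels do not say whether the 4 libraries of a group came from separate animals, so p-values measure only the spread between these libraries.

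Beta-klotho, the product of KLB, is a membrane protein without signalling activity of its own that lets the endocrine ligand FGF21 bind FGF receptors, above all FGFR1 in fat cells. FGFR1 to FGFR4 are receptor tyrosine kinases that pass the signal to the ERK and PI3 kinase cascades, and FGFRL1 binds FGFs but lacks the kinase domain. FGF2, FGF7 and FGF10 are paracrine ligands held near the cell by heparan sulphate, and FGF10 is known for its role in the growth of adipose tissue, whereas circulating FGF21 comes mainly from the liver.

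Values are normalized reads, that is, the transcript read estimates after the authors' normalization, summed here over the transcripts of a gene. The normalized values of a library summed to between 9.53 and 21.2 M (mega), and the spacing of the low values put its depth at approximately 7.79 to 21.3 M reads. A normalized value of 10 therefore stood for 5.55 to 14.4 reads. By the clustering of all values, 7 libraries stood apart from the others (FFGR replicates 2 and 3, FFGRD replicate 3, FC replicate 2 and MCD replicate 4, and the first replicates of both MFGR and MFGRD). A further library went against its label. In FCD replicate 4, labelled as differentiated, adiponectin (ADIPOQ) was at 8.59, FABP4 at 215 and perilipin 1 (PLIN1) at 19.0, against lowest values of 146, 3366 and 124 in the other 15 differentiated libraries. The mean log2 value of 8 adipocyte markers was 4.54 in this library and 7.13 to 11.7 in those 15. In the same library FKBP5 was at 13800 and PTX3 at 10850, above the highest values of 906 and 926 in the 16 preadipocyte libraries. Some of the results that rest on these libraries are given with and without them.

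Each gene was tested with limma on log2(value + 1) in 1 fit of all 32 libraries when its value reached 10 in at least 4 libraries, which 12737 genes did. A gene was called at a Benjamini-Hochberg adjusted p-value below 0.05 and a fold change above 1.5.

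The differentiated cultures other than FCD replicate 4 carried the markers of fat cells. In the mean of the 4 differentiation contrasts 8 of 8 adipocyte markers were called higher, as were 12.4% of all tested genes. By origin, 8 were called higher in MC, 2 in FC, 4 in MFGR and 5 in FFGR. The percentage of all tested genes called higher was 3.8% in MC, 1.08% in FC, 2.03% in MFGR and 4.33% in FFGR. Among the markers of other cells, the summed smooth muscle and pericyte list (5 genes) lay between 6203 and 60000 in preadipocytes and between 605 and 15400 in differentiated cells, and 3 of its 4 tested genes were called lower. The summed endothelial list (6 genes) lay between 28.1 and 190 before and between 7.02 and 295 after differentiation, with CDH5 at 0 in all libraries of MCD and FFGRD. The summed macrophage and leukocyte list (6 genes) lay between 90.5 and 1091 before and between 123 and 948 after differentiation, with 2 of 3 tested genes called higher, 1 called lower, and PTPRC at 0 in all libraries of MC. The summed preadipocyte and fibroblast list (9 genes) lay between 171600 and 1296000 before and between 92560 and 947700 after, with 1 gene of 8 tested called higher and 3 called lower. Of this list, DLK1 was at 0 in all libraries of MC, MCD, FCD and MFGR. In the MC contrast THY1 was called higher, by 2.61 on the log2 scale, and LUM (-1.41) and DCN (-1.96) were called lower. The summed mesothelial and epithelial list (4 of its 6 genes are in the table) lay between 2.03 and 1877 before and between 2.12 and 130 after, with 0 of 3 tested genes called and EPCAM at 0 in all libraries of MC, MCD and MFGRD. The part of these markers in the results for the receptors was not tested. In bulk RNA, fewer cells of a type and less RNA per cell cannot be told apart.

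Of the 10 genes, 8 were tested and FGFR4 and FGF21 were not. KLB passed the filter only through its differentiated libraries. In the mean of the 4 differentiation contrasts 4 of the 8 were called, KLB, FGFRL1 and FGFR3 higher and FGF7 lower, where 27.2% of all tested genes were called (12.4% higher and 14.8% lower).

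KLB had the largest log2 fold change of the 8 tested members in the mean of the origins. The gene lies on chromosome 6, positions 64097277 to 64128352 of Oar_rambouillet_v1.0, with 1 listed transcript. It was listed at 0 in all 4 libraries of MC and in all 4 of MFGR. In FC its values were 2.75, 0, 0.995 and 0, which is about 3 reads in all, and in FFGR they were 0, 0, 0.939 and 0, which is about 1 read.

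After differentiation KLB reached 209, 786, 1532 and 734 normalized reads in MCD (815 ± 544, SD, n = 4). In MFGRD it was at 649, 101, 175 and 33.6 (239 ± 279), in FCD at 231, 111, 513 and 0 (214 ± 220), and in FFGRD at 1165, 231, 469 and 34.3 (475 ± 493). Every differentiated library except FCD replicate 4 was above every preadipocyte library, and the values within a differentiated group spanned a wide range.

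As MC had no KLB read, MCD was at least 933-fold higher when MC is set at a floor of 3 reads over its 4 libraries, and MFGRD was at least 316-fold higher than MFGR. The ratio of FCD to FC was 228 (95% counting interval 88.4 to 1250) and that of FFGRD to FFGR was 2020 (343 to 75600). These intervals and floors cover counting error only. The bound for MFGRD was 136-fold without MFGRD replicate 1, one of the libraries that stand apart. The ratio for FCD was 122 without FCD replicate 3 and 644 without FC replicate 1, and that for FFGRD was 1040 without FFGRD replicate 1. Without FFGR replicate 3, FFGR had no KLB read and FFGRD was at least 471-fold higher. Leaving out any other library of an origin moved its value by less than 1.5 times. In all genes tested, 7.65% were separated upward without overlap between MC and MCD, 5.16% between MFGR and MFGRD and 5.14% between FFGR and FFGRD, as KLB was, and 4.91% between FC and FCD, where KLB overlapped. KLB was called higher in all 4 origins by limma, with adjusted p-values of 2.48e-05 for MC, 0.000668 for MFGR, 0.000169 for FFGR and 0.0192 for FC. As KLB passed the filter only through its differentiated libraries, these calls are no independent support for the rise. The percentage of all tested genes called was 8.35% in MC, 5.13% in MFGR, 10.3% in FFGR and 2.52% in FC. In the mean of the 4 origins the log2 fold change was 7.37 ± 0.61 (SE, adjusted p = 6.57e-10 by limma). Since the preadipocytes were near 0, its size depends on the pseudocount and ranged from 4.54 to 9.99 over 42 alternatives, with the call kept in each.

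The female control contrast was the one in which the KLB call rested on single libraries. The log2 fold change was 5.19 ± 1.23 with all libraries and 7.16 without FCD replicate 4, where KLB was listed at 0. Leaving out FC replicate 2 gave an adjusted p-value of 0.0612 by limma, and leaving out FC replicate 4 gave 0.059. Omission of the first or the third replicate of FCD gave 0.0885 and 0.117. Without the 7 libraries that stand apart it was 0.0559.

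**Figure D1:**
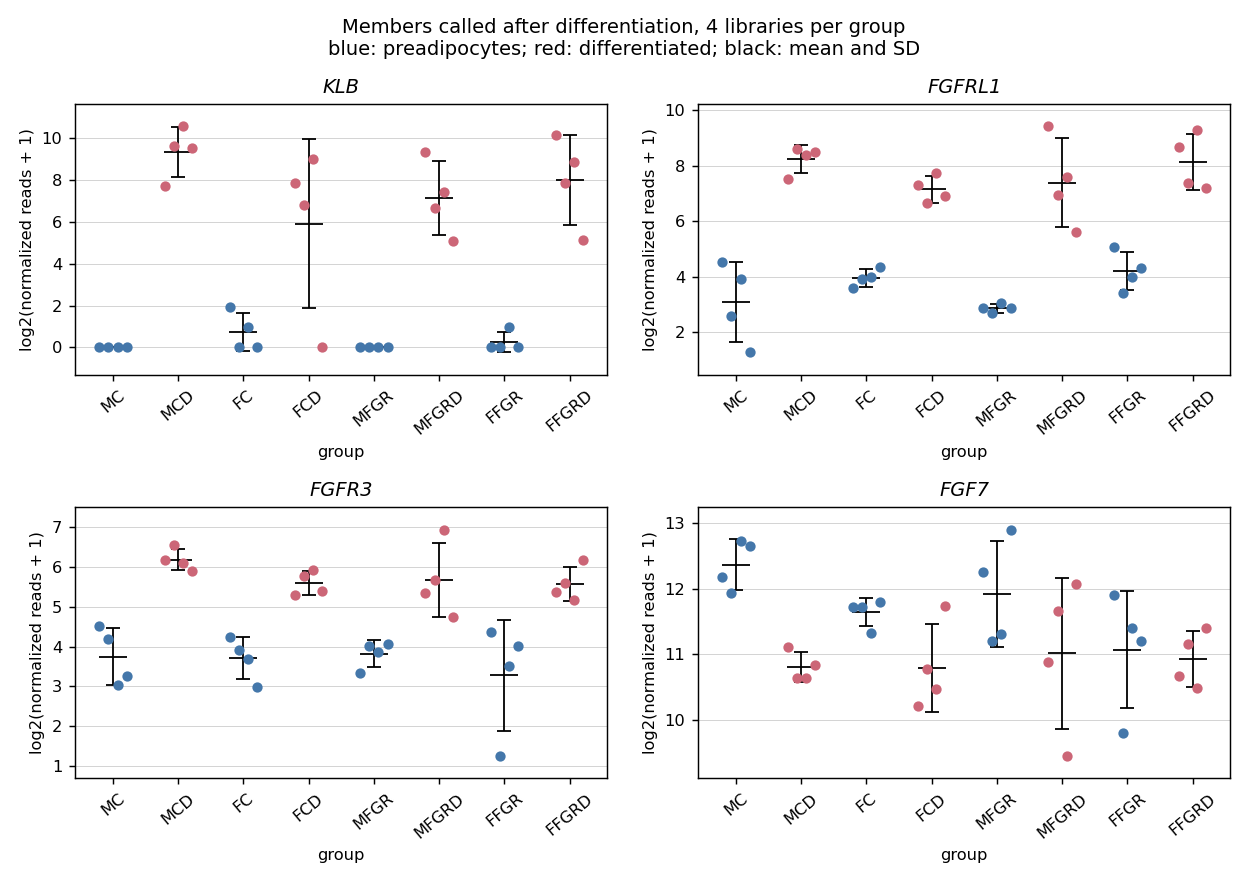
KLB, FGFRL1, FGFR3 and FGF7 in 32 libraries, as log2(normalized reads + 1) on the y axis and group on the x axis. Each point is a library, blue for preadipocytes and red for differentiated cells, and the black marks are the mean and SD of 4 libraries. The stages separate for FGFRL1 and FGFR3 and, apart from FCD replicate 4 at 0, for KLB, whereas FGF7 overlaps.

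Ordered by mean log2 value, KLB was highest in MCD (9.36 ± 1.20, SD), followed by FFGRD (8.02 ± 2.14), MFGRD (7.14 ± 1.76) and FCD (5.92 ± 4.05). The ranges of neighbouring groups in this order overlapped. The mean of FCD includes replicate 4, where KLB was listed at 0, against 231, 111 and 513 in the other FCD libraries. The order without that library is not reported here. Among the differentiated libraries KLB followed the adipocyte markers. Over the 16 libraries Pearson's r between log2 KLB and the mean log2 value of the 8 markers was 0.933 (permutation p = 1e-05, the smallest these permutations can give; adjusted over 8 members 8e-05), and Spearman's rho was 0.897 (permutation p = 2e-05, adjusted p = 0.00016). Without the 2 libraries farthest from the median of the markers, FCD replicate 4 and FFGRD replicate 3, r was 0.944. Without the 3 differentiated libraries that stand apart, r was 0.968. Within the 8 control libraries r was 0.969 (permutation p = 0.00011, adjusted p = 0.00088), and within the 8 growth-restricted libraries it was 0.90 (permutation p = 0.00397, adjusted p = 0.0159).

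In relation to PLIN1, a coat protein of the lipid droplet, KLB varied less than on its own. In the 15 differentiated libraries other than FCD replicate 4 there were 10.9 to 33.9 normalized KLB reads per 100 of PLIN1, with a median of 28.2, while KLB itself ranged from 33.6 to 1532. The lowest ratios were 10.9 in MFGRD replicate 1, 11.5 in FFGRD replicate 3 and 16.4 in MCD replicate 4. These are the differentiated libraries that stand apart. Per 100 reads of the lipase gene LIPE, KLB ranged from 31.3 to 158, and per 100 of ADIPOQ from 5.24 to 23.3. The ratios to PLIN1, LIPE and ADIPOQ were not part of the planned design. They compare libraries, not the levels of the genes, since no transcript lengths were used.

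**Figure D2:**
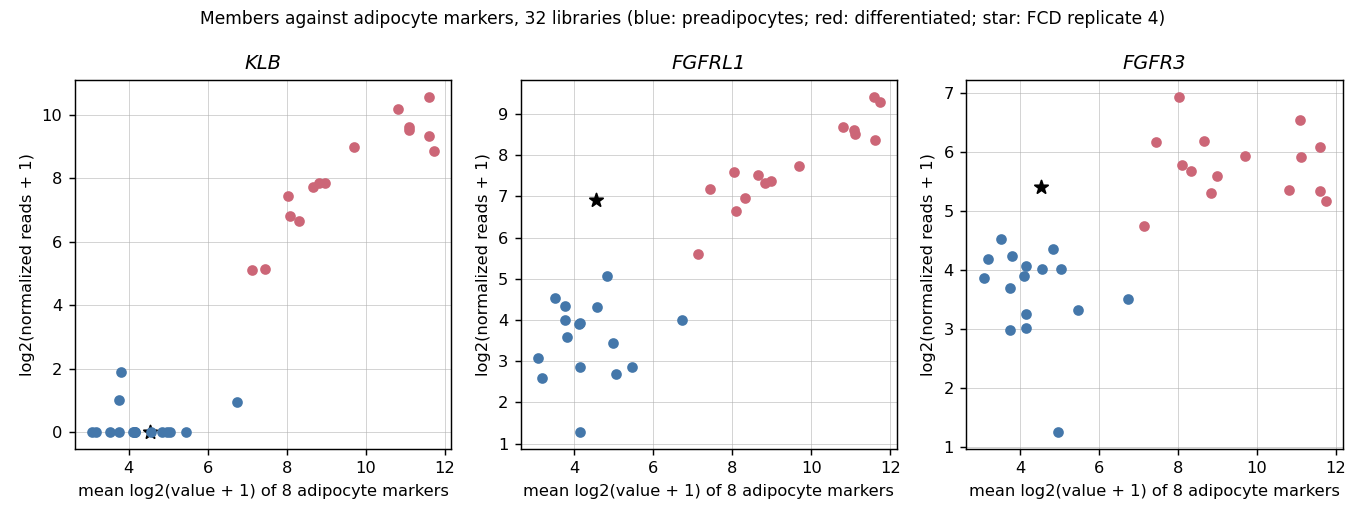
KLB, FGFRL1 and FGFR3 against adipocyte markers in 32 libraries. The x axis is the mean log2(value + 1) of 8 adipocyte markers, the y axis is log2(normalized reads + 1) of the member, and each point is a library (blue for preadipocytes, red for differentiated cells, star for FCD replicate 4). KLB climbs with the markers and is at 0 in the starred library, whereas FGFRL1 and FGFR3 in that library are at 119 and 41.5, among the differentiated libraries.

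FGFR1, the main partner of beta-klotho in adipocytes, was expressed in every library. It has 4 listed transcripts on chromosome 26, between positions 36528051 and 36577471. Its values were 1524, 1500, 2321 and 2402 in MC and 2405, 2209, 3151 and 3632 in MCD. They were 1460, 1660, 2471 and 2165 in FC and 3256, 1392, 3822 and 1711 in FCD. They were 1761, 2920, 1475 and 1922 in MFGR and 2506, 2316, 2329 and 2692 in MFGRD. In FFGR they were 1975, 698, 1902 and 2587, and in FFGRD 5220, 3548, 2471 and 2681. The stages overlapped in each origin.

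The mean log2 fold change of FGFR1 was 0.56 ± 0.18 (SE, adjusted p = 0.0155 by limma), a 1.47-fold difference that did not reach the fold threshold of 1.5. With quantile normalization it was 0.64 (adjusted p = 0.00686 by limma), past the threshold. It also passed when any 1 of 8 single libraries was left out (MC replicate 4, MCD replicate 2, MFGR replicate 2, FC replicate 3, FCD replicates 2 and 4, FFGR replicate 4, FFGRD replicate 3), with log2 fold changes of up to 0.62. By origin the largest value was in FFGR, at 1.04 ± 0.35 (adjusted p = 0.0582 by limma). FFGR replicate 2, one of the libraries that stand apart, was at 698, against 1902 to 2587 in the other FFGR libraries. The change without FFGR replicate 2 is not reported here. With replicate number as a block the change in FFGR was 1.04 with an adjusted p-value of 0.0381 by limma. The numbers paired the libraries of this origin poorly. FFGR replicate 2 deviated with r = -0.398 with FFGRD replicate 2 and with up to 0.681 with another FFGRD library. The other 3 origins gave 0.56 in MC, 0.30 in FC and 0.33 in MFGR, none called. Whether the response in FFGR differed from theirs was not tested.

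The median shares of the 4 FGFR1 transcripts were similar in both stages, while single libraries varied. FGFR1-202 took a median of 33.7% of the gene in preadipocytes and 34.4% in differentiated cells, FGFR1-203 32.7% and 31.6%, FGFR1-204 23.5% and 22.3%, and FGFR1-201 8.46% and 11.8%. Over the libraries FGFR1-201 ranged from 1.83% to 21.1% and FGFR1-202 from 23.6% to 46.4%. None of the 4 was called when transcripts were tested in place of genes (19.8% of all tested transcripts were called by limma), with log2 fold changes of 0.47 to 0.72. As these transcripts share exons, the split of reads between them is an estimate.

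**Figure D3:**
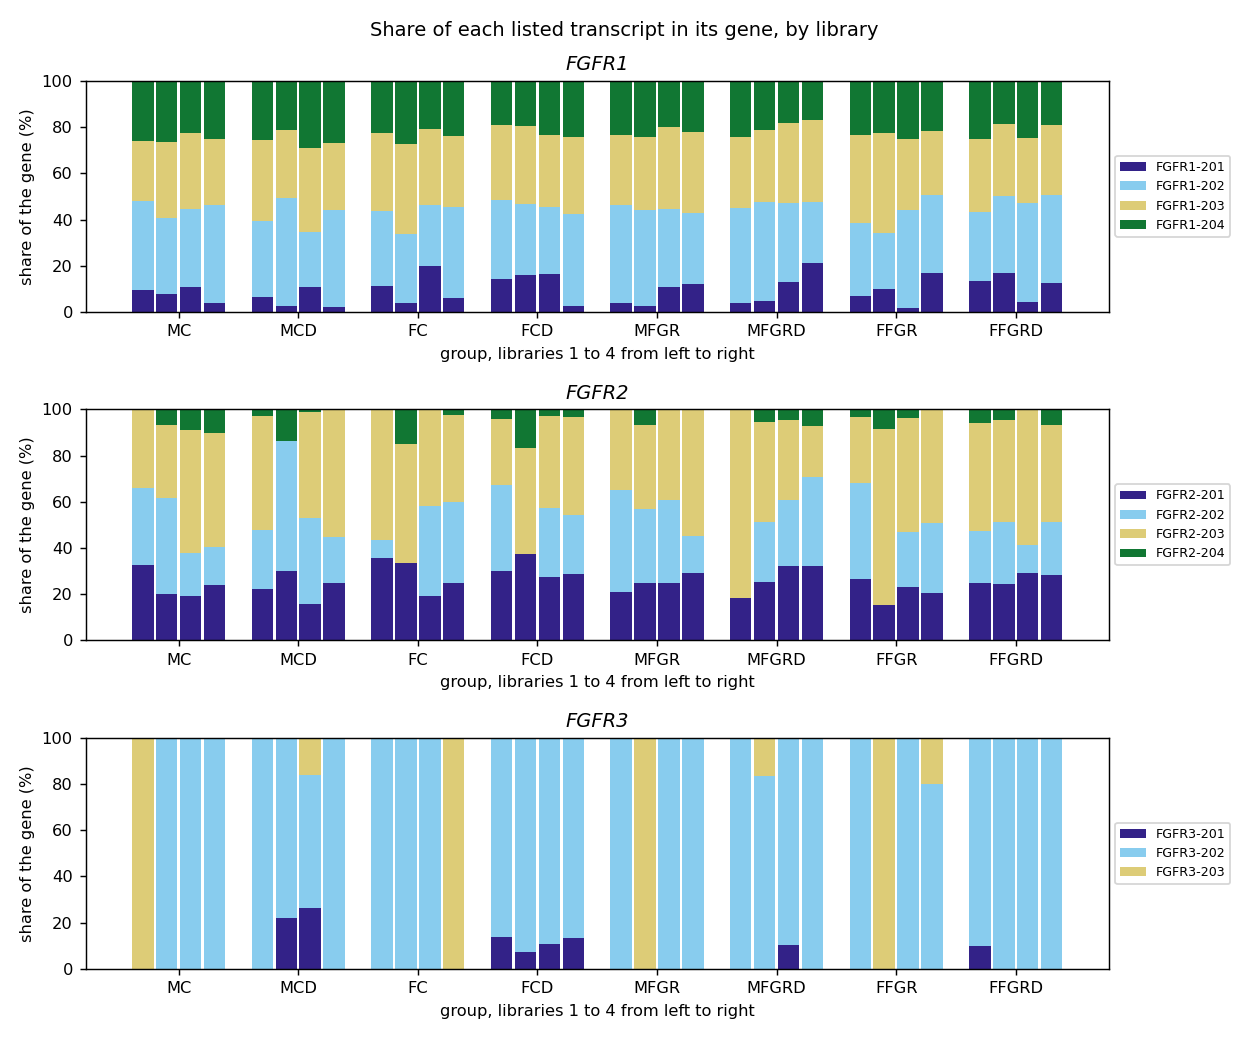
Share of each listed transcript in the normalized reads of FGFR1, FGFR2 and FGFR3. The y axis is the share in percent and each bar is a library, with 4 libraries per group along the x axis. The 4 FGFR1 transcripts are present in every library, with FGFR1-201 ranging from 1.83% to 21.1%, and the FGFR2 shares vary between libraries of the same group. By its median share FGFR3 is mostly FGFR3-202, which is at 0% in some preadipocyte libraries.

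FGFR2, whose splice forms serve FGF7 and FGF10 in epithelium and FGF2 in mesenchyme, varied widely between libraries. The gene lies on chromosome 22, positions 44764708 to 44868509, with 4 listed transcripts. Preadipocytes ranged from 66.3 to 589 with a median of 296, and differentiated cells from 69.7 to 1277 with a median of 592. The mean log2 fold change was 0.65 ± 0.39 (SE, adjusted p = 0.222 by limma), with an interval of -0.16 to 1.46, and FGFR2 was not called. FGFR2 passed the threshold in 4 of 42 alternatives. By limma the adjusted p-value was 0.0262 with replicate number as a block, 0.0437 with the span slope of each library as a covariate, 0.0362 with library weights and 0.0476 without FCD replicate 2. The span slope is the slope of a library's log2 values on the genomic length of the transcripts, and over 32 libraries it had r = 0.66 with FGFR2, 0.70 with FGF2, 0.55 with FGF10 and -0.09 with KLB. The slope was lowest in the 7 libraries that stand apart, from -0.319 in FFGR replicate 2 to -0.168 in FFGR replicate 3. Its part in these values was not tested beyond that covariate. The median share of FGFR2-203 was 45.3% before and 43.7% after differentiation, that of FGFR2-202 31.2% and 25.6%, and that of FGFR2-201 24.2% and 27.9%. Which splice form each transcript encodes was not determined.

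FGFR3 rose in each of the 4 origins from a low level. It lies on chromosome 6, positions 128784073 to 128796816. Its values were 21.97, 17.3, 7.16 and 8.62 in MC and 71.9, 92.5, 67.4 and 59.4 in MCD. They were 17.9, 14.0, 11.9 and 6.93 in FC and 38.6, 54.2, 60.3 and 41.5 in FCD. The 4 control preadipocyte values of either sex lay below all the differentiated values of that sex.

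In the growth-restricted cells the pattern was alike. FGFR3 was at 9.06, 15.2, 13.6 and 15.9 in MFGR and at 39.5, 50.3, 122 and 25.9 in MFGRD. It was at 19.5, 1.39, 10.4 and 15.1 in FFGR and at 40.3, 47.4, 35.2 and 71.0 in FFGRD. All 16 differentiated libraries, FCD replicate 4 included, lay above all 16 preadipocyte libraries, and 0.44% of all tested genes were separated in that direction. The preadipocyte values stand for at most 22.7 reads in a library, so their order within a group is not resolved at this depth.

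The log2 fold change of FGFR3 was 2.12 ± 0.26 (SE) in the mean of the origins (adjusted p = 2.98e-07 by limma). By origin it was 2.44 in MC, 2.30 in FFGR, 1.90 in FC and 1.86 in MFGR, with adjusted p-values of 0.0027, 0.0041, 0.0414 and 0.0303 by limma. In FC and MFGR the call was near the threshold. In FC the adjusted p-value was between 0.0502 and 0.133 without MFGRD replicate 2 or without any 1 of the 4 FC and 4 FCD libraries. In MFGR it was between 0.0512 and 0.15 without any 1 of the 4 MFGR libraries or without MFGRD replicate 2 or 3. In these 2 origins it was also between 0.0523 and 0.106 with a pseudocount of 0.1, with no filter beyond a value of 1, and when the 8 libraries of the comparison were fitted alone. In FFGR it was 0.105 without the 7 libraries that stand apart, with a log2 fold change of 1.53, and 0.144 in the fit of its own 8 libraries. Among the 16 differentiated libraries no correlation of FGFR3 with the adipocyte markers was detected (r = 0.07, permutation p = 0.789, adjusted p = 0.789; rho = -0.07, permutation p = 0.799). Within the 8 control libraries r was 0.651 (permutation p = 0.0791, adjusted p = 0.158) and within the 8 growth-restricted libraries it was -0.337 (permutation p = 0.431, adjusted p = 0.493). The difference between these was not tested. FGFR3-202 took a median share of 100% before and 91.5% after differentiation, and FGFR3-201 was above 0 in 8 libraries, all of them differentiated. The share of FGFR3-202 ranged from 0% to 100% in preadipocyte libraries, on few reads, and from 57.5% to 100% in differentiated ones.

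FGFR4, the receptor known from liver, was near absent. It lies on chromosome 5, positions 38830940 to 38839405. It was listed above 0 in 3 of 32 libraries, with about 1 read in the preadipocyte libraries together and about 2 reads in the differentiated ones, out of approximately 214 M reads each. No difference was detectable at this depth.

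FGFRL1, the receptor without a kinase domain, rose in each origin. It lies on chromosome 6, positions 129349275 to 129360579, with 1 listed transcript. Its values were 22.02, 5.04, 14.2 and 1.43 in MC and 183, 389, 332 and 365 in MCD. They were 10.98, 14.0, 14.9 and 19.3 in FC and 160, 99.1, 211 and 119 in FCD. The highest control preadipocyte library was thus below the lowest control differentiated library.

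In growth-restricted cells FGFRL1 was at 6.26, 5.40, 7.38 and 6.30 in MFGR and at 687, 124, 192 and 47.4 in MFGRD. It was at 32.5, 9.79, 15.1 and 19.1 in FFGR and at 414, 164, 628 and 145 in FFGRD. Here too all differentiated libraries were above all preadipocyte libraries, FCD replicate 4 included. FGFRL1 and FGFR3 were the members whose 16 differentiated libraries did not overlap with the 16 preadipocyte libraries. Of all tested genes, 0.44% were separated in that direction.

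The log2 fold change of FGFRL1 was 4.21 ± 0.32 (SE) in the mean of the origins (adjusted p = 1.57e-10 by limma). It was 5.18 in MC, 4.53 in MFGR, 3.93 in FFGR and 3.20 in FC, with adjusted p-values between 1.21e-05 and 0.00581 by limma. These calls were kept under all 42 to 43 alternatives. Among the 16 differentiated libraries FGFRL1 was correlated with the adipocyte markers with r = 0.836 (permutation p = 7e-05, adjusted p = 0.00028) and rho = 0.871 (permutation p = 4e-05, adjusted p = 0.00016). Without the 2 farthest libraries r was 0.904, and without the 3 differentiated libraries that stand apart it was 0.76 (permutation p = 0.0031, adjusted p = 0.0124). Within the 8 control libraries r was 0.841 (permutation p = 0.00462, adjusted p = 0.0185) and within the 8 growth-restricted libraries 0.935 (permutation p = 0.00084, adjusted p = 0.00672). In order of mean log2 value the differentiated groups were MCD (8.26 ± 0.50, SD), FFGRD (8.14 ± 1.03), MFGRD (7.40 ± 1.59) and FCD (7.15 ± 0.48), all overlapping with their neighbours.

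**Figure D4:**
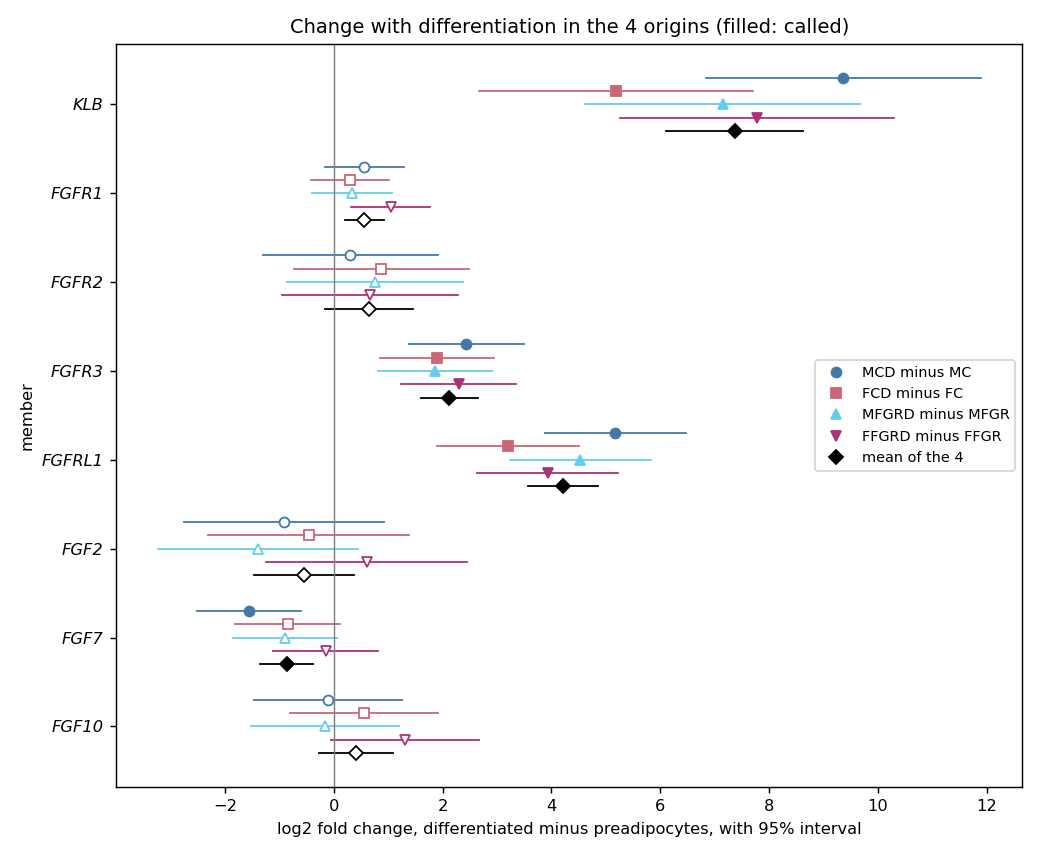
Log2 fold change with differentiation for the 8 tested members. The x axis is the log2 fold change, differentiated minus preadipocytes, with its 95% interval from limma, and each row holds the 4 origins and their mean. Filled symbols are called. KLB, FGFRL1 and FGFR3 lie to the right of 0 in all 4 origins, and FGF7 lies to the left with MC and the mean called.

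FGF7, a ligand of FGFR2 made by mesenchymal cells, was lower after differentiation. It lies on chromosome 7, positions 62563099 to 62624795. Its values were 4612, 3893, 6764 and 6423 in MC and 2218, 1586, 1598 and 1821 in MCD, without overlap (8.7% of all tested genes were separated downward there). They were 3387, 3365, 2569 and 3569 in FC and 1182, 1741, 1410 and 3426 in FCD, and the overlap came from FCD replicate 4. They were 4899, 2365, 2546 and 7645 in MFGR and 1889, 3217, 699 and 4313 in MFGRD. In FFGR they were 3809, 888, 2696 and 2343 and in FFGRD 1621, 2282, 1425 and 2699, so that both growth-restricted origins overlapped.

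FGF7 fell by 0.87 on the log2 scale in the mean of the origins (SE 0.23, adjusted p = 0.00491 by limma), a call kept under all 42 alternatives. By origin it was called in MC, at -1.56 ± 0.47 (adjusted p = 0.0351 by limma). That call was lost without any 1 of 6 libraries (MC replicates 1, 3 and 4, MCD replicates 2, 3 and 4), with adjusted p-values between 0.0587 and 0.103 by limma, and with no filter beyond a value of 1 (adjusted p = 0.0502). The other origins gave log2 fold changes of -0.85 in FC, -0.91 in MFGR and -0.15 in FFGR, none called. The lowest FFGR value, 888, was in replicate 2, one of the libraries that stand apart, and the change without it is not reported here.

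FGF10, known as a ligand made in and around preadipocytes, was present in all libraries. It lies on chromosome 16, positions 32185467 to 32281895. Preadipocytes ranged from 120 to 3595 (median 819) and differentiated cells from 436 to 2482 (median 1078). The log2 fold change was 0.40 (95% interval -0.28 to 1.08, adjusted p = 0.398 by limma). Its largest spread was in MFGR, where the 4 values were 1062, 3279, 308 and 3595.

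FGF2, a general mitogen of mesenchymal cells, lies on chromosome 17, positions 40707674 to 40762443. It ranged from 15.8 to 689 in preadipocytes (median 221) and from 33.3 to 486 in differentiated cells (median 134). The log2 fold change was -0.54 (95% interval -1.46 to 0.38, adjusted p = 0.397 by limma) and was called under 1 of 42 alternatives, library weights, at -0.92 (adjusted p = 0.0406 by limma).

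FGF21, the ligand for which beta-klotho is needed, was listed near 0. It lies on chromosome 14, positions 58833116 to 58834638. It was above 0 in 13 of 16 preadipocyte libraries, with about 29 reads in all, and in 6 of 16 differentiated libraries, with about 8. The highest value was 7.08 in FFGR replicate 1, which stands for 8.24 reads. The gene did not pass the filter on low values. With no filter beyond a value of 1 it was called, with a log2 fold change of -0.81 ± 0.29 (SE, adjusted p = 0.0423 by limma), on values that stand for a few reads.

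**Figure D5:**
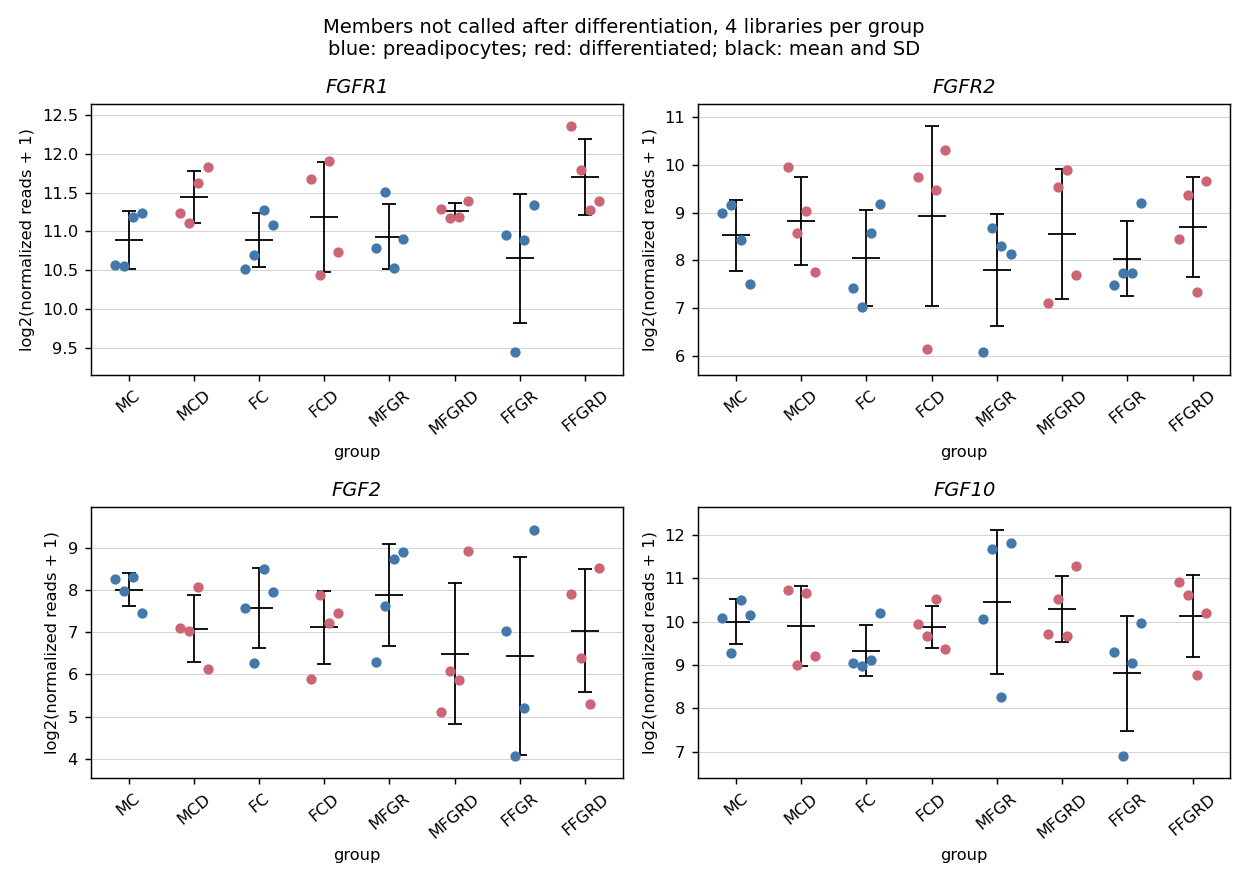
FGFR1, FGFR2, FGF2 and FGF10 in 32 libraries, as log2(normalized reads + 1) on the y axis and group on the x axis. Each point is a library, blue for preadipocytes and red for differentiated cells, and the black marks are the mean and SD of 4 libraries. The stages overlap for all 4 members, and the SD within a group is larger for FGFR2, FGF2 and FGF10 than for FGFR1, except for FGF10 in FCD and FGFR2 in FFGR. The y axes of the 4 panels differ in range.

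Growth restriction and sex were compared within each stage. For growth restriction in preadipocytes 0 of the 8 members were called, where 0.0% of all tested genes were called by limma and 344 of 12737 genes had an unadjusted p-value below 0.05. In differentiated cells 0 members were called (0.0% of all genes, 136 genes at an unadjusted p-value below 0.05). The difference for KLB in differentiated cells, growth-restricted minus control, was -0.06 on the log2 scale with a 95% interval of -1.84 to 1.73. The control side includes FCD replicate 4, where KLB was listed at 0, and the KLB difference without that library is not reported here. For FGFRL1 it was 0.06 (-0.86 to 0.98), for FGFR1 0.16 (-0.35 to 0.68) and for FGFR3 -0.27 (-1.01 to 0.47). These intervals include differences of more than 1.5-fold in either direction for KLB and FGFRL1.

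For sex in preadipocytes 0 members were called (0.0% of all genes, 550 genes at an unadjusted p-value below 0.05 by limma). FGFRL1 was at 1.43 to 22.02 in the male and 9.79 to 32.5 in the female preadipocytes, a log2 difference of -1.11 male minus female (unadjusted p = 0.02 and adjusted p = 0.846 by limma). FGF10 differed by 1.16 (unadjusted p = 0.0202) and FGF7 by 0.79 (unadjusted p = 0.0246), both higher in male cells with an adjusted p-value of 0.846 by limma. In differentiated cells 0 members were called (0.0% of all genes, 159 genes at an unadjusted p-value below 0.05), and the KLB difference was 1.29 on the log2 scale (95% interval -0.50 to 3.07).

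The size of the response to differentiation was compared between origins. None of the members was called for growth-restricted minus control (0.0% of all genes by limma, 132 genes at an unadjusted p-value below 0.05), for male minus female (0.0%, 116 genes) or for MFGR minus the mean of the other 3 origins (0.0%, 74 genes). For KLB the difference in response was 0.19 (95% interval -2.34 to 2.71) for growth restriction, 1.77 (-0.76 to 4.29) for sex and -0.30 (-3.21 to 2.61) for MFGR. Each of these KLB values includes FCD replicate 4, where KLB was listed at 0, and the values without that library are not reported here. For FGFRL1 it was 1.29 (-0.01 to 2.59) for male minus female, with an adjusted p-value of 0.911 by limma. Intervals this wide do not show that the origins responded alike.

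The genes whose pattern over the 32 libraries was most like that of a member were named by Pearson's r of log2 values. As the libraries fall into preadipocytes and differentiated cells, r over all of them reflects the stages as well, and it is given as a description. KLB was most like PPP1R1B (r = 0.975), PLIN1 (0.972) and PLIN4 (0.964). In FCD replicate 4, where KLB was at 0, these were at 4.23, 19.0 and 0.703. FGFRL1 was most like ENPEP (0.943), ABCG1 (0.933) and PPP1R1B (0.932). FGFR3 was most like PTX3 (0.903), CPM (0.898) and FKBP5 (0.878), and in FCD replicate 4 these were at 10850, 643 and 13800, above all preadipocyte libraries. The values of FGFR3 and of its nearest genes in that library lay on the differentiated side, and those of KLB and of its nearest genes did not. Of the nearest genes of FGFRL1, ENPEP (32.4) and ABCG1 (17.6) were above all preadipocyte libraries there, and PPP1R1B was not. As the nearest genes were picked over libraries that include FCD replicate 4, their likeness to the member in that library follows in part from the choice.

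The nearest genes of the other members had lower r. They were FYN, ALDH6A1 and BMPER for FGFR1 (0.823 to 0.843), COL12A1, AFF2 and DCLK1 for FGFR2 (0.827 to 0.835), ZMAT3, PLEKHA3 and KBTBD8 for FGF2 (0.816 to 0.82), ANGPTL1, RGS17 and PRELP for FGF7 (0.73 to 0.78) and MYLIP, NOVA1 and CYBRD1 for FGF10 (0.785 to 0.812).

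The surroundings of the receptors were described by 5 lists of genes, in the mean differentiation contrast, where the median log2 fold change of all tested genes was 0.03. In that contrast 27.2% of all tested genes were called, 12.4% higher and 14.8% lower. Of 22 other FGF ligands, alpha-klotho and FGF binding proteins, 20 were in the table and 2 reached the filter. FGF18 was called lower, at -3.26 ± 0.45 (SE, adjusted p = 2.13e-06 by limma), and FGF11, an intracellular family member, was not called at 0.44 (adjusted p = 0.484). Of 22 tested heparan sulphate proteoglycans and their enzymes 4 were called higher and 10 lower, with a median of -0.43. The largest differences were in the surface proteoglycans glypican 4 (GPC4, -3.15), syndecan 1 (SDC1, -2.49) and glypican 5 (GPC5, -2.43) and in the sulphotransferase HS3ST1 (-2.69), all lower with adjusted p-values of at most 0.000209 by limma.

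Inside the cell, 2 of the 23 tested genes of the relay from receptor to kinase cascade were called higher and 2 lower, with a median of 0.02, where 27.2% of all tested genes were called. PIK3R1, the regulatory subunit of PI3 kinase, was at 1.92 and the docking protein gene GAB1 at 1.26, while MAPK3, which encodes ERK1, was at -0.83 and the adaptor gene SHC1 at -0.81.

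Of 23 tested ERK target and feedback genes 6 were called higher and 5 lower, with a median of 0.09, where 27.2% of all tested genes were called. DUSP4, a phosphatase of ERK, was at 4.39 ± 0.50 (SE), while the transcription factors ETV1 (-3.44) and ETV4 (-3.15) and cyclin D1 (CCND1, -3.27) were lower, with adjusted p-values between 1.18e-07 and 0.000349 by limma. The other called genes, named after their values were seen, were SPRY4 (2.65), DUSP6 (1.73), EGR1 (1.25), MYC (1.19) and SPRY1 (0.99) higher and SPRED3 (-2.86) and IER3 (-2.12) lower. Feedback inhibitors of the pathway thus stood on both sides. Of 8 tested receptor partners at the membrane 1 was called higher, KLB itself, and 4 lower, the galectins LGALS3 (-2.66) and LGALS1 (-2.28), FLRT3 (-2.18) and N-cadherin (CDH2, -1.69), with adjusted p-values of at most 0.000828 by limma.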

How the data were processed

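RNA-seq libraries (Swift RNA library kit, NextSeq500) of 32 samples in 8 groups were analysed. The authors ran FastQC (0.11.9 per the labels), removed reads whose mean Phred score was under 34, estimated transcript reads with Salmon (Ensembl transcripts of Oar_rambouillet_v1.0) and applied DESeq2 normalization across the libraries. The deposited signal is the normalized read value of each transcript and library. It is not a whole number of reads, as a further factor of the transcript, such as its length, was also applied. The deposited group means were not used, nor were the columns with the fold changes, p-values and adjusted p-values of the authors' own DESeq2 comparisons.

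Transcript values were summed per gene identifier. The design allowed for read counts or normalized values. As the deposited values were normalized, limma 3.58.1 in R 4.3.3 was fitted to log2(value + 1) with 1 mean per group and an empirical Bayes trend, for genes of at least 10 in at least 4 libraries. P-values were adjusted by Benjamini-Hochberg over all genes tested. Permutation tests used 100000 permutations and were two-sided (scipy 1.17.1). The 10 members, the gene lists and the cell markers were chosen with earlier results of these data known. Named are all members, the 3 named genes of highest r with each tested member, and up to 4 called genes of largest change per list, and any others were named after their values were seen. Sequences were not analysed here.

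In data simulated for the mean differentiation contrast on 12449 genes, 84% to 98% of genes changed by 2 or 4 on the log2 scale were called, with 9 false calls among 12251 unchanged genes. The simulated noise was independent for each gene and library. It held neither the pairing of libraries nor the libraries that stand apart, so these rates may not hold for the measured data. Samples with the same number deviated together, by a correlation above 0.1 in each of the 4 pairs, in MC (r 0.162 to 0.615), FC (0.303 to 0.508) and MFGR (0.393 to 0.671). In FFGR 3 pairs did (0.331 to 0.565) and number 2 gave -0.398. Another number matched better for MC 2 (0.214 against 0.162), FFGR 1 (0.353 against 0.331) and FFGR 2 (0.681 against -0.398). The replicate number was used as a block in an alternative. Other alternatives were pseudocounts of 0.1 and 10, quantile normalization, 2 other filters, the libraries of the comparison alone, library weights, the span slope as a covariate, and fits without the 7 libraries that stand apart or without each library in turn. A fit without those 7 and FCD replicate 4, and the KLB bounds and ratios without each library, were chosen after seeing the data.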

Additional observations from a re-analysis of the deposited data

Results flagged for a closer look

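In 64 groups of 4 libraries (8 tested members in 8 groups, compared on the log2 scale), 3 had a library far from the other 3, and chance alone gives about 1 in 20 groups. KLB in FFGR replicate 3 was at 0.939, which is about 1 read, while the other 3 libraries were listed at 0. FGFR2 in FFGR replicate 4 was at 589, against 179 to 211 in the other FFGR libraries. FGF10 in FC replicate 4 was at 1174, against 500 to 552 in the other FC libraries.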

How the results depend on the processing

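For the tested members in the mean contrast and the called members by origin, no change with differentiation reversed direction under any alternative. The correlation of KLB with the adipocyte markers did not reverse either. For the other differences, such as those for growth restriction and sex, the direction was not compared. The number of members called stayed within 1.5 times the reported number, except in FC. There it was 3 with all libraries and 1 when the 8 libraries of FC and FCD were fitted alone, where KLB fell below the filter on low values. It ranged from 1 to 3 when each library in turn was left out, with 1 without FC replicate 2, FC replicate 4, FCD replicate 1 or FCD replicate 3. The number of member transcripts called in the mean contrast was 4 and ranged from 4 to 7 when each library was left out, the highest without FCD replicate 2. With the replicate number as a block, 5 members were called in the mean contrast in place of 4 (FGFR2 added) and 4 in FFGR in place of 3 (FGFR1 added), and the block changed no other call of a member. In FFGR the numbers paired poorly, with r = -0.398 for number 2. With no filter beyond a value of 1, FGF21 was called in addition. Without the 7 libraries that stand apart the number was 4 in the mean contrast, 2 in FC and 2 in FFGR. The correlation of KLB with the adipocyte markers in control and growth-restricted libraries together lay between 0.901 and 0.968 with other pseudocounts, quantile normalization or libraries left out. Of the tests of single members, 839 were on the same side of the threshold as reported, 36 lost the call and 14 gained it. The low depth of KLB, FGFR3 and FGFRL1 in preadipocytes limits the precision of their fold changes.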
